A study of Mus musculus with 2 samples.

Results

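Heavy chain variable segments, the Ighv genes, were described in antibody-secreting cells of the mouse small intestine lamina propria, the connective tissue under the gut epithelium. The count matrices hold 185 rows whose symbol begins with Ighv, of 32285 gene rows, and all 185 were matched by identifier to the annotation. Each cell with at least 20% of its unique molecular identifiers (UMIs, counts of distinct RNA molecules) on immunoglobulin genes was called immunoglobulin-high, and was assigned its highest Ighv row if that row held at least 5 UMIs. A segment was assigned to 6982 of 7746 immunoglobulin-high cells in the CD4-Cre library and to 8174 of 8843 in the F/F library, from 12526 and 12594 cells kept in these libraries. The CD4-Cre pool carried CD4-Cre with Aster-A F/F alleles, and the F/F pool carried the Aster-A F/F alleles alone. CD4-Cre is a transgene active in developing αβ T cells, so plasma cells are not its target. Each library was 1 pool of 3 female littermates aged 10 to 12 weeks, fasted for 16 h and then given olive oil by gavage for 2 h. Live CD45+ cells without EPCAM, Ter119 or CD31 had been sorted, 100000 from each mouse. Cells of the 3 mice cannot be told apart within a pool, so a difference between the libraries cannot be told apart from a difference between mice. No p-value is therefore given between the libraries. Intervals between them are exact 95% intervals (Clopper-Pearson for shares) that cover counting error only.

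An antibody heavy chain gene is assembled in each B cell from 1 variable, 1 diversity and 1 joining segment in front of the constant genes, and the variable segment gives most of the antigen-binding surface of the chain. Cells that descend from the same B cell keep the same heavy and light chain segments through class switching and division. In the gut most plasma cells secrete IgA, which is carried across the epithelium and coats microbes.

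A 3′ library reads few molecules as far upstream as the variable segment, and reads of 50 bases cannot separate segments that share the stretch read. The last 200 bases of the annotated transcript (GENCODE M21 on GRCm38, chromosome 12, minus strand) are shown for segments on which the results turn. Capitals mark bases inside a window of 50 bases that another Ighv transcript also holds. Ighv1-19 (chr12:114708648-114708847) led the F/F IgG cells and had the highest cycling share of the F/F segments with at least 50 cells, Ighv1-69 (chr12:115623161-115623360) and Ighv3-3 (chr12:114196439-114196638) led pairs that differed between the pools, and the neighbours Ighv3-4 (chr12:114253617-114253816) and Ighv3-5 (chr12:114262652-114262851) were each nearly limited to 1 pool. Ighv1-72 (chr12:115757984-115758183) and Ighv1-62-3 (chr12:115460999-115461198) show a pair of near-copies.
Ighv1-19: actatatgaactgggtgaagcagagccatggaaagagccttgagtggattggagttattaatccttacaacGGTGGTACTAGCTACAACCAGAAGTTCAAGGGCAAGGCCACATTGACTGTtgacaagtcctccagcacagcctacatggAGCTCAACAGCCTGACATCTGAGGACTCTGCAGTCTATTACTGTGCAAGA
Ighv1-69: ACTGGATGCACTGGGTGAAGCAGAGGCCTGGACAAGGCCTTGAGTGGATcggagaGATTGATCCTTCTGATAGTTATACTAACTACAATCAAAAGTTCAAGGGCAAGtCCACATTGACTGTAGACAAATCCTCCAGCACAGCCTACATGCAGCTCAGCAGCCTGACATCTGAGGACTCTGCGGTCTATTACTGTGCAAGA
Ighv3-3: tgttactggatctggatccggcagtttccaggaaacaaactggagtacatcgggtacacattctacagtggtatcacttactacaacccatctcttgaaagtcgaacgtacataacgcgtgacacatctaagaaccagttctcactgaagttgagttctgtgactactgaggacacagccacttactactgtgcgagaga
Ighv3-4: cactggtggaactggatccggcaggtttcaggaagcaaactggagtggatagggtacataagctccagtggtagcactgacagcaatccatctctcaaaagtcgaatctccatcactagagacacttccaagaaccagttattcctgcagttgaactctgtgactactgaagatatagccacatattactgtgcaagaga
Ighv3-5: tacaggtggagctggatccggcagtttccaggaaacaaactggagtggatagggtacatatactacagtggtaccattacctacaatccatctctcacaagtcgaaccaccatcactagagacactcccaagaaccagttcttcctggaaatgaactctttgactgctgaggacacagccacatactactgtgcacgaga
Ighv1-72: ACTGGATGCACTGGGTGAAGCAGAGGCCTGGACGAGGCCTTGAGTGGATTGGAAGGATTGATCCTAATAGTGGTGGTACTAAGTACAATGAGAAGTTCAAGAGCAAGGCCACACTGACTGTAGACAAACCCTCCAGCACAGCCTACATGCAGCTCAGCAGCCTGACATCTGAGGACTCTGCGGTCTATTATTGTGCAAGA
Ighv1-62-3: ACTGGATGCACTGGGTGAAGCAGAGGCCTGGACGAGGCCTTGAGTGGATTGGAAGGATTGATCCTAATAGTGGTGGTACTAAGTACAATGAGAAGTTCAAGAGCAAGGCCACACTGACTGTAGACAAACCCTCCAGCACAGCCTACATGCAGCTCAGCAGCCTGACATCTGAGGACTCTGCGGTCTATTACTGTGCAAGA
Over these stretches, aligned from the 3′ end without gaps, Ighv3-4 and Ighv3-5 had the same base at 170 of 200 positions and no capitals, so reads of the last 200 bases could be placed for both. Ighv1-72 and Ighv1-62-3 had the same base at 199 of 200 positions. Over the whole transcript 7.49% of the 50-base windows of Ighv1-72 were its own, 30.6% of those of Ighv1-62-3, 59.6% of those of Ighv1-69, and all windows of Ighv3-3, Ighv3-4 and Ighv1-47.

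Plasma cell markers were detected at differing rates. Xbp1, Derl3, Sdc1 and Tnfrsf17 had a UMI in 89.1% to 99.3% of immunoglobulin-high cells. Prdm1 had one in 41.1% of CD4-Cre and 51.3% of F/F cells, and Irf4 in 53.4% and 62.2%. Jchain, which links IgA into polymers, had a UMI in 100% of immunoglobulin-high cells of both libraries, and Mzb1, a chaperone of antibody-secreting cells, in 99.4% of the CD4-Cre and 99.1% of the F/F cells. The B cell genes Ms4a1 and Pax5 had a UMI in 2.19% and 0.439% of the CD4-Cre immunoglobulin-high cells and in 1.58% and 0.17% of the F/F ones, and the T cell gene Cd3e in 6.73% and 4.35%. H2-Aa, also on the B cell list, had a UMI in 42.9% of the CD4-Cre and 39.5% of the F/F immunoglobulin-high cells. RNA of pancreatic acinar genes made up at least 0.1% of UMIs in 1 CD4-Cre and 684 F/F cells. Some results, not all that rest on the F/F library, were also computed without those cells. These were the assigned share, segment diversity, shares of family Ighv1 and of named segments, rows past 2-fold, cycling shares and the leading pairs. The libraries held 200580083 (CD4-Cre) and 222838658 (F/F) UMIs, the median immunoglobulin-high cell 17411 and 17438. The libraries shared 47 cell barcodes, of which 23 were immunoglobulin-high.

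Ighv RNA was scarce but concentrated on 1 segment per cell. It made up 0.153% of the UMIs of immunoglobulin-high cells in the CD4-Cre library and 0.19% in the F/F library, a median of 22 and 26 UMIs per cell. The highest row of an assigned cell held a median of 95% of its Ighv UMIs in CD4-Cre and 95.7% in F/F. A segment was assigned in 90.1% (89.5 to 90.8) of CD4-Cre and 92.4% (91.9 to 93) of F/F immunoglobulin-high cells, and 31 and 46 cells were left unassigned because of a tie. Cells without an assignment were shallower, with a median of 8269 UMIs in CD4-Cre and 7130 in F/F, against 17983.5 and 17893.5 in assigned cells. T cells, which make no heavy chain, showed some background. Some Ighv RNA was seen in 99.5% of immunoglobulin-high cells of each library. Among cells with Cd3e and less than 5% immunoglobulin UMIs it was seen in 31.6% of 2145 CD4-Cre and 37.2% of 1370 F/F cells, which had medians of 3860 and 4123 UMIs. The 5-UMI rule assigned 0 of these CD4-Cre T cells, with an exact upper limit of 0.172%, and 1 of the F/F T cells. These T cells were selected for little immunoglobulin RNA and were shallower than immunoglobulin-high cells. Their rate therefore does not show how often background sets the segment of an immunoglobulin-high cell.

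Segment use was broad and close to alike in breadth between the pools. Assigned cells used 97 rows in the CD4-Cre library and 95 in the F/F library, and the effective number of segments (inverse Simpson index, the number of equally used segments that would give the same diversity) was 42.1 and 42.5. The 10 most used segments held 38.1% of CD4-Cre and 37.6% of F/F cells, and 32 segments reached 1% in each library. Of 113 rows annotated as functional V genes, 93 had a cell in each library. The 70 pseudogene rows took 8 CD4-Cre and 2 F/F cells. The symbols Ighv5-8 and Ighv1-13 each stand on 2 rows and had no cell. Over the 77 segments with at least 20 cells in both libraries together, shares in the libraries correlated with Pearson r = 0.80 and Spearman rho = 0.82, a description over segments that share a reference and a chemistry and are not independent.

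Family Ighv1, the family with the most rows, held more than any other family, with 57.0% (55.8 to 58.2) of CD4-Cre and 54.7% (53.6 to 55.7) of F/F cells. Family Ighv5 followed in CD4-Cre with 10.1%, against 9.47% in F/F. Family Ighv3 held 6.75% (6.17 to 7.36) in CD4-Cre and 10.7% (10.0 to 11.4) in F/F, and family Ighv9 2.88% (2.50 to 3.30) and 5.25% (4.77 to 5.75). Ighv11, a family known from B-1 cells that recognise phosphatidylcholine, had 26 CD4-Cre and 28 F/F cells, and Ighv12, the other family known from such cells, had 0 cells in either library, with exact upper limits of 0.0528% in CD4-Cre and 0.0451% in F/F. Split into Ighm-proximal, middle and distal sets of 38, 38 and 37 functional V genes, the locus gave 26.7%, 35.0% and 38.3% of CD4-Cre cells and 27.8%, 37.6% and 34.5% of F/F cells.

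**Figure D1:**
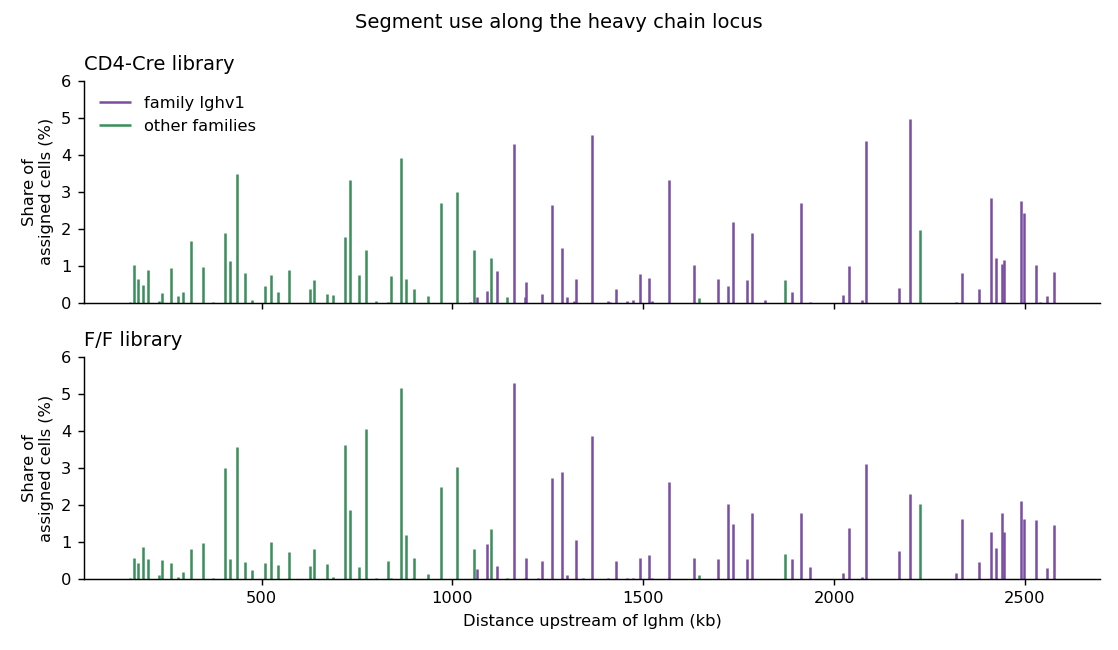
Share of assigned cells (vertical axis, %) for each segment against its distance upstream of Ighm (kb), with the CD4-Cre library above the F/F library and family Ighv1 in its own colour. Used segments run from the proximal to the distal end of the locus in both libraries, and family Ighv1 spans 929 to 2587 kb, a range in which family Ighv8 (910.1 to 2435 kb) also lies.

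The most used segments were Ighv1-9, Ighv3-6, Ighv1-26, Ighv1-64 and Ighv1-69 by the mean of both libraries. This order counts only reads that could be placed on 1 segment. Ighv1-69 led the CD4-Cre library with 348 cells, 4.98% (4.49 to 5.52), against 188 cells, 2.30% (1.99 to 2.65), in F/F, a ratio of cell shares of 2.17 (1.81 to 2.60). Ighv1-9 had 300 cells, 4.30%, in CD4-Cre and led the F/F library with 433 cells, 5.30%, a ratio of 0.811 (0.698 to 0.942). Ighv1-26 was used by 4.53% of CD4-Cre and 3.85% of F/F cells, Ighv1-64 by 4.37% and 3.11%, and Ighv3-6 by 3.92% and 5.16%. Ighv3-3 had 99 CD4-Cre and 332 F/F cells, a ratio of 0.349 (0.276 to 0.438), and Ighv9-3 had 125 and 296, a ratio of 0.494 (0.398 to 0.611). Ighv5-15 had 131 and 244 cells with a ratio of 0.629 (0.504 to 0.78), and Ighv7-3 had 232 and 153 with a ratio of 1.77 (1.44 to 2.19). For Ighv5-17, Ighv6-6, Ighv1-18 and Ighv6-3 the interval of the ratio included 1, with ratios of 0.982, 0.995, 0.976 and 1.09. Ighv1-47 stood at 1.27 (1.05 to 1.54) and Ighv1-80 at 1.31 (1.06 to 1.62). The interval of the ratio excluded 1 for 11 of the 15 most used segments, which have many cells and so narrow intervals. These intervals treat cells as independent, although cells of 1 clone or mouse are not. The count is thus no test between the pools, and the count over all segments is not given here.

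**Figure D2:**
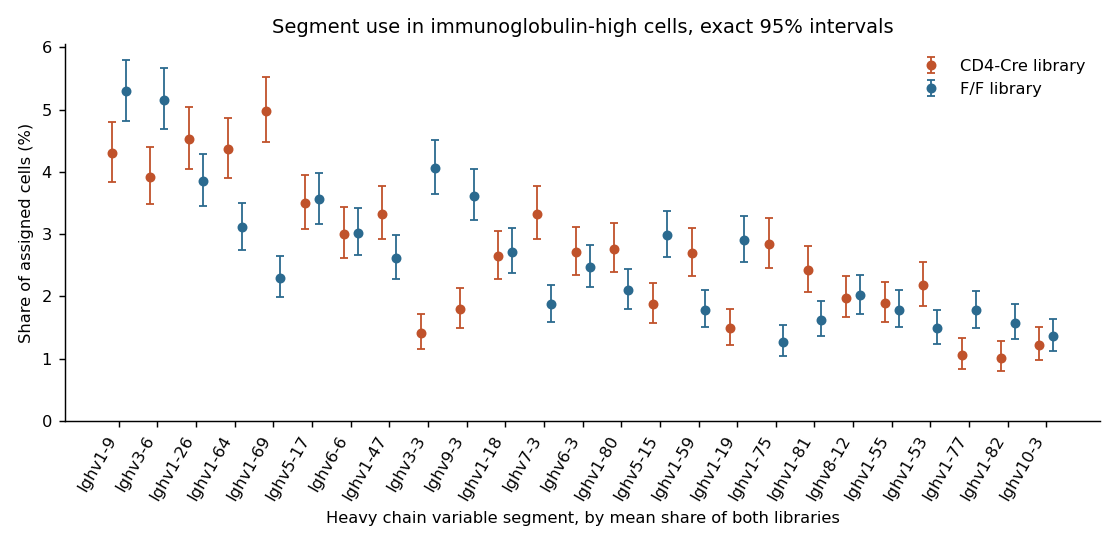
Share of assigned cells (vertical axis, %) for the 25 segments with the highest mean share, with exact 95% intervals, CD4-Cre left of F/F in each pair of points. Ighv1-69 stands at 4.98% in CD4-Cre and 2.30% in F/F, and Ighv3-3 at 1.42% and 4.06%.

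Summed UMIs differed between the libraries for Ighv rows far more often than for other genes. Of 95 Ighv rows with at least 100 UMIs over both libraries, 14 (14.7%) were past 2-fold higher in CD4-Cre over F/F, against 0.576% of all 12843 genes, and 18 (18.9%) were past 2-fold lower, against 0.662% of all genes. Light chain V rows, which are also fixed in each cell lineage, gave 19.4% and 13.3% of 98. No test stands behind these folds, and their intervals treat UMIs as independent although 1 cell holds many UMIs of its own segment. Ighv3-5 was at 7.83 CPM (counts per 1e6 UMIs) in 50 CD4-Cre cells and at 0.327 CPM in 2 F/F cells, a UMI ratio of 23.9 (18.2 to 32.1). Its neighbour Ighv3-4 was the other way, at 0.396 CPM in 2 CD4-Cre cells and 6.22 CPM in 40 F/F cells, a ratio of 0.0637 (0.0479 to 0.0832). The leading light partner held 33 of the Ighv3-5 cells of CD4-Cre (Igkv3-2) and 31 of the Ighv3-4 cells of F/F (Igkv4-68), so a single pair made up most cells of each. Ighv1-61 had 2 CD4-Cre and 27 F/F cells and a UMI ratio of 0.12 (0.0871 to 0.163), Ighv7-1 6 and 20 cells and a ratio of 0.279, and Ighv1-15 16 and 40 cells and a ratio of 0.284. On the higher side Ighv2-5 had 66 CD4-Cre and 36 F/F cells and a UMI ratio of 2.96, Ighv1-7 60 and 28 cells and 2.62, Ighv14-4 52 and 25 cells and 2.56, and Ighv5-16 78 and 43 cells and 1.84. Cells and UMIs did not always move alike. Ighv9-3 had a UMI ratio of 0.144 (0.139 to 0.149) beside its ratio of cells of 0.494, at 26.1 CPM in CD4-Cre and 182 CPM in F/F. In F/F, 85 Ighv9-3 cells paired with Igkv14-111 held a median of 218 UMIs of the segment, whereas the median over all Ighv9-3 cells was 24 in CD4-Cre and 43 in F/F.

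Pairing the heavy with the light chain segment divided the cells more finely than the heavy segment alone. By the highest Igkv or Iglv row, Iglv1 came out on top in 33.3% of CD4-Cre and 39.5% of F/F kappa cells, whose light chain constant RNA was kappa. The light row was therefore also taken within the cell's own class, a rule chosen after seeing the data and used for the pairs here. Lambda cells made up 3.38% of CD4-Cre and 3.34% of F/F immunoglobulin-high cells. The effective number of pairs was 202 in CD4-Cre and 189 in F/F. Pairs with at least 20 cells numbered 68 in CD4-Cre and 93 in F/F and held 40.1% and 49.6% of paired cells. Both libraries had at least 20 cells of 20 pairs, which is 29.4% of the CD4-Cre pairs of that size and 21.5% of the F/F pairs. At least 1 cell in the other library was found for 52 (76.5%) of the CD4-Cre and 69 (74.2%) of the F/F pairs of that size. Of 35 segments with at least 50 cells in both libraries, 6 had the same leading light partner in both.

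In CD4-Cre the leading pair was Ighv1-69 with Igkv10-96, with 290 cells (4.2%, 3.74 to 4.7), against 96 cells (1.19%) in F/F. It held 84.1% of the paired Ighv1-69 cells in CD4-Cre and 51.9% in F/F. The leading F/F pair was Ighv3-3 with Igkv10-96, with 45 cells (0.652%) in CD4-Cre and 322 cells (3.998%, 3.58 to 4.45) in F/F, where it held 97.0% of the paired Ighv3-3 cells. By the highest row of either class these pairs held 4.06% of CD4-Cre and 3.52% of F/F cells. Both pairs thus occurred in both pools, at shares that differed. Other large pairs were far more frequent in 1 pool. Ighv1-47 was paired with Igkv3-5 in 98 CD4-Cre and 2 F/F cells, and with Igkv8-30 in 2 CD4-Cre and 128 F/F cells, so the same heavy segment had another leading partner in each pool. Ighv5-15 was paired with Igkv1-110 in 60 CD4-Cre and 7 F/F cells, and with Igkv3-10 in 0 CD4-Cre and 149 F/F cells. Ighv1-59 with Igkv6-32 had 156 CD4-Cre and 24 F/F cells, Ighv1-75 with Igkv8-28 64 and 1, Ighv1-52 with Igkv10-96 7 and 133, and Ighv1-85 with Igkv1-110 3 and 82. Ighv1-9 with Igkv4-55 was well filled in both pools, with 48 CD4-Cre cells (0.695%) and 142 F/F cells (1.76%). A few pairs stood at like numbers, among them Ighv1-9 with Igkv8-21 in 67 CD4-Cre and 66 F/F cells and Ighv3-6 with Igkv12-46 in 63 and 71. Junction sequences were not analysed here, so a pair can hold more than 1 clone.

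**Figure D3:**
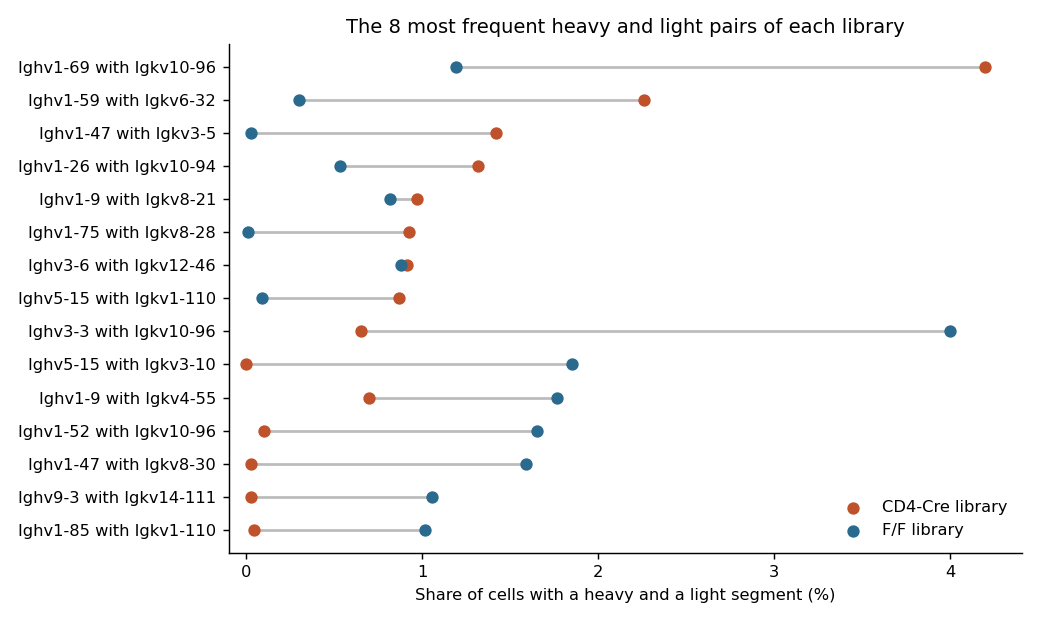
Share of cells with a heavy and a light segment (horizontal axis, %) for the 8 most frequent pairs of each library, with 1 pair in both lists, CD4-Cre and F/F points joined by a line. Several pairs sit near 0 in 1 library, while Ighv1-9 with Igkv8-21 and Ighv3-6 with Igkv12-46 sit close together.

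By isotype (the heavy constant gene with at least 10 UMIs and 2 times the next), IgA cells made up 98.3% of CD4-Cre and 98.2% of F/F immunoglobulin-high cells, so segment use over all cells was that of IgA cells. IgG cells numbered 92 in CD4-Cre and 116 in F/F, and 90 and 112 had a segment. In CD4-Cre they were spread over 43 segments with an effective number of 25.6, led by Ighv1-47 with 11 of 90 cells (12.2%, 6.26 to 20.8). In F/F they were spread over 37 segments with an effective number of 8.19, because Ighv1-19 alone held 36 of 112 cells (32.1%, 23.6 to 41.6), against 2 of 90 in CD4-Cre. Among IgA cells Ighv1-19 held 1.49% in CD4-Cre and 2.46% in F/F. By subclass 34 of the 36 Ighv1-19 IgG cells in F/F carried Ighg1 as top constant gene and 2 carried Ighg2b, whereas F/F IgG cells as a whole had 68 with Ighg1 and 38 with Ighg2b. All 11 Ighv1-47 IgG cells of CD4-Cre were paired with Igkv3-5. IgM cells numbered 20 in CD4-Cre, led by Ighv3-6 with 5 and Ighv4-1 with 4, and 11 in F/F, of which 10 had a segment and 3 used Ighv7-3. With so few cells IgM was not tested.

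The UMIs of non-cycling cells were summed per pool and isotype, and IgG was compared with IgA over both pools by edgeR's quasi-likelihood test with the pool as a block, with Benjamini-Hochberg adjustment over all genes. There were 68 such IgG cells in CD4-Cre and 70 in F/F, and the 2 pools leave 1 residual degree of freedom, so the spread is largely that shared between genes. Of 94 Ighv rows tested, 10 rose in IgG cells, against 0.606% of all 13860 genes, and 35 fell, against 2.01% of all genes. Light chain V rows moved alike, with 5 higher and 42 lower of 98 and a median log2 fold change of -1.53. The shares over all genes depend on the scaling. With TMM 84 of all genes rose and 279 fell, and with scaling by total UMIs 259 rose and 94 fell. The Ighv rows that rose were Ighv1-19, Ighv1-47, Ighv9-2, Ighv1-4, Ighv9-1, Ighv1-74, Ighv1-82, Ighv3-8, Ighv1-52 and Ighv14-2, and 1 to 15 non-cycling IgG cells stood behind each. Ighv1-47 was at 757 and 214 CPM in IgG cells of CD4-Cre and F/F, and at 75.8 and 61.3 CPM in IgA cells of these pools (log2 fold change 2.26 ± 0.19 SE, adjusted p = 1.8e-12). Ighv1-19 was at 105 and 455 CPM in IgG cells of CD4-Cre and F/F, and at 32.6 and 35.9 CPM in their IgA cells (2.41 ± 0.22 SE, adjusted p = 2.16e-11). By CPM the direction was thus the same in both pools for both rows, with the larger difference for Ighv1-47 in CD4-Cre and for Ighv1-19 in F/F. For Ighv1-19 the CD4-Cre value rested on 102 UMIs, with 2 assigned non-cycling IgG cells against 13 in F/F. By cells it held 2.22% (0.27 to 7.80) of all CD4-Cre IgG cells, an interval that includes its 1.49% of IgA cells. For Ighv1-47 there were 9 and 5 such non-cycling cells. Neither call held with DESeq2 (adjusted p = 0.0816 for Ighv1-47 and 0.204 for Ighv1-19) or with edgeR without the pool as a block (adjusted p = 0.192 and 0.187), while the log2 fold changes stayed between 2.23 and 2.74 in every fit over both pools. Ighv9-2 (3.46), Ighv9-1 (2.50) and Ighv1-74 (1.76) also rose in the log2 scale of the fit. Of these, Ighv1-74 alone was also called without the block. Ighv1-4 (2.87) rose although it had 0 UMIs in CD4-Cre IgG cells, and Ighv9-2, Ighv1-4 and Ighv14-2 had an assigned non-cycling IgG cell in 1 pool only.

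Rows that fell in IgG cells were in most cases rows that these few cells did not use. Of the 35, 24 had no non-cycling IgG cell in either pool and 7 had no UMI there. Ighv1-49, with 0 UMIs in IgG and 4037 UMIs in IgA cells over both pools, was at least 10.4-fold lower, taking a floor of 3 counts over the group. Ighv2-9 was at least 7.90-fold lower and Ighv14-1 at least 3.45-fold lower by the same floor, Ighv7-1 and Ighv3-5 at least 2.76-fold and 2.75-fold, and Ighv3-4 at least 2.46-fold. Without the pool as a block Ighv1-49 alone of these 6 was called. The median log2 fold change of the 94 rows was -1.60, or -0.30 with the 23 rows without a UMI in IgG cells put at their floor, beside -0.12 for all genes. DESeq2 called 5 higher and 9 lower, and without the pool as a block 1 was higher and 6 lower, so how many rows differ is not settled by these cells. The UMIs of a row come from a handful of cells that may be 1 clone, and the test reads them as the level of a pool.

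Cycling cells, with UMIs for at least 3 of 12 cell cycle genes, made up 10.9% (10.2 to 11.6) of CD4-Cre and 11% (10.4 to 11.7) of F/F immunoglobulin-high cells. Their segments were as diverse as those of non-cycling cells in CD4-Cre, with an effective number of 43.4 in cycling and 41.0 in non-cycling cells, but less so in F/F, with 31.2 in cycling and 42.0 in non-cycling cells. Leaving out Ighv1-19 gave 40.3 for the cycling F/F cells. In CD4-Cre 13 of 104 Ighv1-19 cells were cycling (12.5%, 6.83 to 20.4), against 10.5% (9.82 to 11.3) of cells with another segment. In F/F 102 of 237 Ighv1-19 cells were cycling (43.0%, 36.6 to 49.6), against 10.2% (9.57 to 10.9) of cells with another segment. Ighv1-19 was the only one of 44 F/F segments with at least 50 cells whose interval lay above the share of the whole library. Some segments with fewer cells also lay above it. Among F/F IgA cells, 15 of 36 with Ighv2-5 were cycling (41.7%, 25.5 to 59.2), and 12 of 47 with Ighv2-2 (25.5%, 13.9 to 40.3).

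The cycling share of Ighv1-19 in F/F was high within IgA and IgG cells and with several assigned light chain partners. Among IgA cells it was 39.1% (32.2 to 46.3), 77 of 197 cells, and among IgG cells 63.9% (46.2 to 79.2), 23 of 36, against 9.96% and 28.9% of F/F cells of these isotypes with another segment. Ighv1-19 cells made up 1.84% (0.981 to 3.12) of the cycling and 1.45% (1.16 to 1.78) of the non-cycling IgA cells in CD4-Cre, and 9% (7.16 to 11.1) and 1.67% (1.39 to 2.00) in F/F. Its F/F cells used 39 light segments. Cycling cells made up 20 of the 42 cells with Igkv5-48, 11 of the 34 with Igkv8-27 and 16 of the 33 with Igkv17-121. They made up 6 of the 25 with Igkv1-110 and 10 of the 20 with Igkv10-96. These were the F/F partners with at least 20 cells. The light row of a cell is uncertain, since Iglv1 was the highest light row in 39.5% of F/F kappa cells. Whether 1 heavy and light pair gave the share was not tested. In CD4-Cre 0 of 23 cells with Ighv1-19 and Igkv17-121 were cycling. In CD4-Cre, immunoglobulin RNA took a median of 55.6% in Ighv1-19 cells, against 53.5% in cells with another segment. The F/F Ighv1-19 cells held less immunoglobulin RNA, a median of 34.4% of UMIs (quartiles 26.8 to 44.9), against 52.1% in F/F cells with another segment. They held more genes, 2867 against 2195, at close total depth (18886 against 17846 UMIs). These medians were not split by cycling state. Among all F/F IgA cells, immunoglobulin RNA took a median of 32.0% in cycling and 52.7% in non-cycling cells. Without the cells with acinar RNA the cycling share of F/F Ighv1-19 cells was 43.9%. With each cell thinned to 5000 UMIs, 6.17% of Ighv1-19 cells were cycling in CD4-Cre, against 4.18% of all assigned cells, and 29.9% (23.2 to 37.3) in F/F, against 5.95%. Whether 1 or several of the 3 F/F mice carried these cells cannot be told apart.

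Low cycling shares stood at a few common segments. Ighv3-3 had 3.03% of CD4-Cre and 3.61% of F/F cells in cycle, Ighv1-77 had 0% and 3.45%, and Ighv1-18 had 5.95% and 5.86%, each with an interval below the share of its library. Ighv1-69 was low in CD4-Cre at 2.59% and stood at 7.45% in F/F. Of segments with at least 50 cells, 4 of 45 in CD4-Cre had an interval above the library share, among them Ighv1-59 (17.6%) and Ighv9-3 (17.6%), and 5 had one below, while in F/F 9 of 44 had one below. Over the 35 segments with at least 50 cells in both libraries, the cycling shares had Spearman rho = 0.13 and Pearson r = 0.16 between the libraries, points that share a reference and a gene list.

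**Figure D4:**
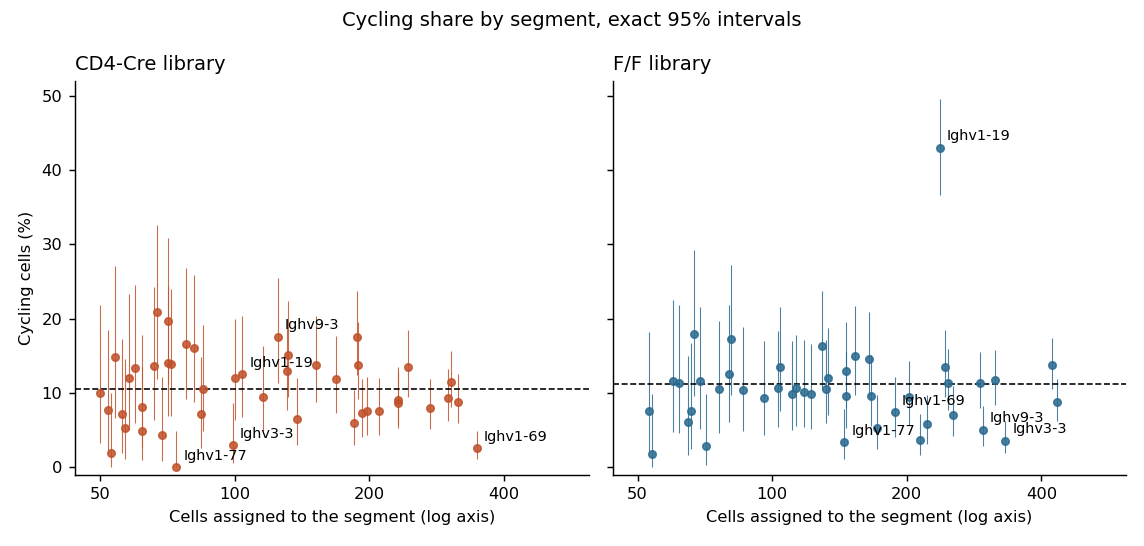
Cycling cells (vertical axis, %) for each segment with at least 50 cells, against the number of its cells (log axis), with exact 95% intervals, CD4-Cre left and F/F right, and the share of all assigned cells of the library as a dashed line. Ighv1-19 stands at 12.5% in CD4-Cre and 43.0% in F/F.

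Cycling IgA cells held less Ighv RNA relative to their total than non-cycling ones. Their Ighv RNA made up 0.0938% of UMIs in CD4-Cre and 0.114% in F/F, against 0.162% and 0.204% in non-cycling IgA cells of these pools. Per cell the difference was smaller, with a median of 18 Ighv UMIs in cycling and 22 in non-cycling cells of CD4-Cre, and 24 and 26 in F/F. Cycling cells were deeper, with medians of 23607 UMIs in CD4-Cre and 25615.5 in F/F, against 16909 and 16760 in non-cycling cells. In edgeR's quasi-likelihood test with the pool as a block, 73 of 103 Ighv rows fell in cycling IgA cells, against 21.8% of all 14848 genes, and 1 rose, against 26% of all genes. Without the pool as a block 39 rows were called lower. Of 101 light chain V rows 81 fell and 4 rose with the block, at a median log2 fold change of -1.22. The median log2 fold change of Ighv rows was -1.20, beside -1.05 for Igha, -1.12 for Igkc and -0.02 for all genes. Of 12 constant genes 7 fell and 1, Ighg2b, rose (0.69), and of 19 tested genes of the secretory pathway 12 fell and 2 rose. Scaling by total UMIs in place of TMM moved the median of all genes to 0.45 and that of Ighv rows to -0.73, with 61 lower and 5 higher. Ighv rows thus moved with the other immunoglobulin genes, and only differences from their median bear on which segment was used.

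**Figure D5:**
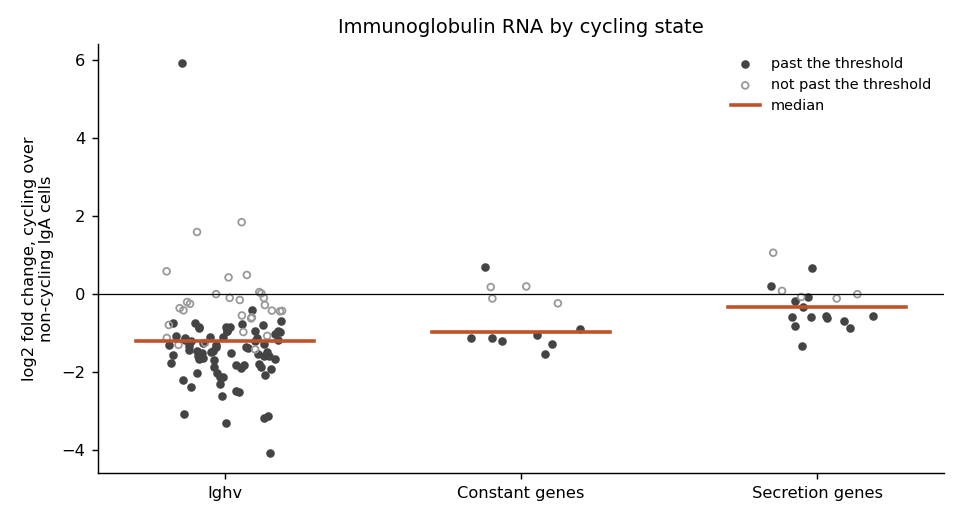
Log2 fold change of cycling over non-cycling IgA cells (vertical axis) for Ighv rows, constant genes and secretory pathway genes, filled where past an adjusted p of 0.05 and with the median as a bar. The median is -1.20 for Ighv rows, and the row near 6 is Ighv1-41, with 21 UMIs in cycling cells.

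Rows that fell most were Ighv13-2 (log2 fold change -4.08 ± 0.27 SE, adjusted p = 2.21e-06), Ighv1-77 (-3.30 ± 0.26, adjusted p = 8.63e-06), Ighv1-2 (-3.17), Ighv11-2 (-3.12), Ighv2-6-8 (-3.06) and Ighv14-1 (-2.62). Ighv1-77 had 40 and 318 UMIs in cycling IgA cells of CD4-Cre and F/F, and 3978 and 8469 in non-cycling ones. Ighv2-6-8 had 2 UMIs in cycling and 69 in non-cycling cells over both pools, a ratio of 0.158 (0.0188 to 0.593), and Ighv1-2 had 4 and 147 and was not called without the pool as a block (adjusted p = 0.0949). Among the most used segments Ighv3-3 stood at -2.47, Ighv1-69 at -2.13 and Ighv5-15 at -0.74, and each of the 15 most used segments fell by this test, also when scaled by total UMIs. By UMIs the pools differed for Ighv1-18, at 38.5 CPM in cycling and 37.1 CPM in non-cycling IgA cells of CD4-Cre, and at 18.3 and 59.0 CPM in those of F/F. By cells they were close, with 11 of 185 Ighv1-18 IgA cells cycling in CD4-Cre and 13 of 220 in F/F. Few cycling cells thus stood behind these CPM values. Ighv1-41, the row that rose, is annotated as a pseudogene, had no assigned cell and held 21 UMIs in cycling and 1 in non-cycling IgA cells over both pools. Ighv1-19 did not pass (log2 fold change -0.00 ± 0.35 SE, adjusted p = 0.999), and its CPM went opposite ways in the pools. It was at 20.4 CPM in cycling and 32.6 CPM in non-cycling IgA cells of CD4-Cre, and at 93.1 and 35.9 CPM in F/F. The median Ighv row also fell (-0.73 by total UMIs), so the fall in CD4-Cre does not mean lower use. By cells its share was higher among cycling than non-cycling IgA cells in both pools. It was 1.84% against 1.45% in CD4-Cre, where the intervals overlapped, and 9% against 1.67% in F/F.

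A second Ighv row with at least 5 UMIs was found in 12.8% (12.0 to 13.6) of assigned CD4-Cre and 14.6% (13.8 to 15.4) of assigned F/F cells. The combinations with the most cells recurred in both libraries, and the 50-base windows they share differed widely. Ighv1-62-3 was second in 60.7% of CD4-Cre and 65.2% of F/F cells with Ighv1-72 on top, and Ighv1-72 in 66.7% and 75.2% of cells with Ighv1-62-3 on top, and 66.6% of the windows of Ighv1-62-3 are also in Ighv1-72. Ighv1-66 was second in 45.5% and 50% of Ighv1-75 cells (18.3% of the windows of Ighv1-66 are in Ighv1-75), and Ighv1-55 in 48.7% and 61.5% of Ighv1-53 cells (6.28% of the windows of Ighv1-55 are in Ighv1-53). Ighv1-81 was second in 12.4% of CD4-Cre and 13.4% of F/F cells with Ighv1-80 on top, and 1.32% of the windows of Ighv1-81 are in Ighv1-80. The second row shared a 50-base window with the top row in 43.3% of such cells in CD4-Cre and 35.9% in F/F. Reads from the shared windows cannot be placed, so counts of Ighv1-72 and Ighv1-62-3 are uncertain. The same limit holds for other rows. In Ighv1-69, 193 of the last 200 bases lie in shared windows. Less than 50% of the windows were their own for 15 functional V genes, to which 464 CD4-Cre and 707 F/F cells were assigned. Rankings of segments and shares of families and locus sets carry this uncertainty. No doublet caller was run, and where the second rows came from was not tested.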

How the data were processed

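Single cells of 2 pools were profiled with 10x Genomics 3′ kits and paired reads of 50 bases, per the labels' protocols. The deposited UMI count matrices came from Cell Ranger 7.2.0 with mm10, per the submitters' processing notes, and were used as deposited, unfiltered. Seurat 5.0.1, named in the same notes, was not used. Cells had at least 1000 UMIs, 500 genes and at most 10% mitochondrial UMIs. No doublet caller was run. Immunoglobulin-high cells had at least 20% of UMIs on 392 immunoglobulin rows. Positions and transcripts were those of GENCODE M21 (GRCm38). Annotation of a cell cannot correct reads that the counting step discarded because they matched several segments.

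Sums per pool and class were tested with edgeR 4.0.16 (TMM, quasi-likelihood, pool as block). DESeq2 1.42.0 was an alternative. P-values measure the spread between 2 pools only. The calculation was tested on simulated counts. Named segments were the 15 with the highest mean share, 5 per direction with the largest UMI ratio and at least 20 cells, up to 6 per direction and test by fold change, and the 8 most frequent pairs per library. Other segments named, among them Ighv1-19 in the cycling comparison, were chosen after their values were seen. Members and lists were chosen with earlier results of these data known. Promoters of Ighv genes were not analysed here.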

Additional observations from a re-analysis of the deposited data

Results flagged for a closer look

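Cycling shares of Ighv9-3 cells lay on opposite sides of the library share in the pools, 17.6% in CD4-Cre and 5.07% in F/F, beside 10.6% and 11.2% of all assigned cells. Of 24 segments examined it was the one where both exact intervals excluded the library share in opposite directions, and the difference was not tested. In F/F, 85 of the 296 Ighv9-3 cells were paired with Igkv14-111 and 1.18% of those were cycling, against 2 cells of that pair in CD4-Cre.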

How the results depend on the processing

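No paired analysis was possible between CD4-Cre and F/F because each is 1 pool, numbered by accession order. Depth limited the assignment. The assigned share was 76.8% in CD4-Cre and 81.4% in F/F with at least 10 Ighv UMIs, 93.5% and 95% with at least 40% immunoglobulin, 73.5% and 75.8% where the highest row had to hold 80% of Ighv UMIs, 91.4% and 94.3% at a mitochondrial limit of 5%, and 59.1% and 66.6% after thinning to 5000 UMIs (382 CD4-Cre and 373 F/F cells were shallower). Without cells with at least 0.1% acinar UMIs, an alternative added after seeing the data as were those of the pairs by class and of the cycling share, it was 93.9% in F/F. The effective number of segments under these settings was 41.9, 41.1, 40.2 and, thinned, 39.4 in CD4-Cre and 42.0, 40.9, 39.2 and 39.3 in F/F, and 42.3 in F/F without acinar RNA. The Ighv1 family share was 55.2% in CD4-Cre with 10 UMIs, 53.2% and 52% in CD4-Cre and F/F at 80%, and 53.1% and 52.9% thinned. Ighv1-69 in CD4-Cre was 4.17% with 10 UMIs, 4.25% at 80% and 4.07% thinned, and Ighv1-9 in F/F was 5.91% at 80% and 6.31% thinned.

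The cycling share of Ighv1-19 was 6.17% in CD4-Cre and 29.9% in F/F after thinning, and 35.4% in F/F with at least 5 of 12 genes. The leading pairs held 3.44% of CD4-Cre and 2.14% of F/F cells with 10 UMIs for both rows, and 3.998% in F/F by class. Counts of rows past 2-fold stayed within 13 to 19 under every alternative run.

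For IgG over IgA, DESeq2 called 5 rows higher and 9 lower, and the fit with no replicate block 1 and 6. On the log2 scale without a test, Ighv3-5 was 0.32 without the CD4-Cre and -4.04 without the F/F pool, Ighv3-4 was -3.76 and 0.80, and Ighv1-4 was 4.10 and -1.67. Ighv3-5 and Ighv3-4 had 0 UMIs in IgG cells of both pools and Ighv1-4 0 in those of CD4-Cre, so the values that rest on these zeros are set by the prior count and give neither a size nor a direction. For cycling cells, rows called higher were 0 with DESeq2, 5 by totals without TMM, 2 with no filter, 2 without acinar cells and 2 with at least 5 genes, and the fit with no replicate block called 39 lower. The causes were not tested.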
